A study of Mus musculus with 21 samples.

Results

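Mucin-type sugar chains are built by glycosyltransferases, and 63 such genes, of the 18194 genes that the array names, were followed across sorted cells of the mouse small intestine. The members are the genes whose symbol begins with Galnt, B3gnt, B4galt, B3galt, St3gal, St6gal, St6galnac, Fut or Gcnt and a number, each read through the probe set with the highest mean over the 20 sorted arrays. One of them, Fut4-ps1, is a pseudogene. They were read through 136 probe sets in all, and 22 members have only 1. Levels are log2(signal + 16), and of the 63 members 41 passed the filter for testing, which asks for a level above the array's median on at least 2 arrays. The other 22 members lay between 4.01 and 7.67, where the array medians were 6.87 to 7.45. Of these, 20 were never above the median and 2 were once.

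The sorted cells carried the red protein TdTomato and are labelled Mist1+, Mist1 being the transcription factor of secretory cells encoded by Bhlha15. Flow cytometry parted them by the surface protein CD24 into a CD24lo and a CD24hi fraction, and each fraction was measured on 2 arrays in each of 5 conditions. These are untreated mice, mice with Lgr5-expressing cells ablated (arrays labelled DT), mice irradiated with 10 Gy, mice given the DNA-damaging drug doxorubicin, and mice labelled NICD, a name the labels do not spell out. One further array held whole intestine, with villi as its cell type label. All sorted groups share the TdTomato label. The labels give no strain, age, driver of the label or of NICD, dose of doxorubicin or time after treatment, no group with the DT label and no ablation, and no count of animals behind a replicate. The p-values therefore measure only the spread between arrays, which may be technical.

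Mucins are long proteins with many serines and threonines, and the mucus of the gut owes its gel nature to the sugars hung on them. Galnt enzymes place the first sugar, N-acetylgalactosamine. B3gnt6 and the Gcnt enzymes set the core and its branches, and B3gnt, B4galt and B3galt enzymes lengthen the chain. Sialyltransferases (St) and fucosyltransferases (Fut) cap it with sialic acid or fucose. The name pattern also takes in enzymes with other substrates. Among these, Fut8 adds the core fucose of N-linked chains, St6gal1 sialylates N-linked chains, B3gnt5, B4galt5, B4galt6 and B3galt4 act in glycolipid synthesis, and B4galt7 and B3galt6 build the linker of proteoglycans. By role the 63 members are 16 of initiation (10 tested), 5 of core and branch (2 tested), 19 of chain extension (14 tested), 14 of sialic acid (10 tested) and 9 of fucose (5 tested).

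On the sorted arrays the median signal was 101 to 158, replicate arrays had correlations over all genes of 0.942 to 0.985, and 0 pairs of arrays were identical. One array, CD24hi NICD replicate 2, stood apart from the other sorted arrays. Its highest cre spike-in signal was 63365, where the others had 20327 to 45784, and its 3′ to 5′ actin ratio was 1.03, where the others had 1.30 to 1.58. Its group had the lowest replicate correlation. Mean levels of cell type marker lists differed between the fractions. The list mean over 8 Paneth markers was 10.6 to 12.1 in CD24lo arrays and 12.8 to 14.0 in CD24hi arrays, and the means over 9 stem cell markers were 8.47 to 10.5 and 10.3 to 11.6. For 10 enterocyte markers they were 10.9 to 13.6 and 9.89 to 11.8, and for 11 goblet markers 13.0 to 13.8 and 12.5 to 13.3. Goblet markers were thus high in both fractions. On all arrays, fewer cells of a type and less RNA per cell cannot be told apart.

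Between the fractions, averaged over the 5 conditions, 23 of the 41 tested members differed, 8 higher and 15 lower in CD24hi cells. Over all 11825 genes tested the share past the threshold was 46.6%, with 27.4% higher and 19.2% lower. The members' share was 56.1%. Of the 8 higher members, St6galnac4 and Fut1 were above an array median on CD24hi arrays alone, so they were tested only because they were high there, and their part of the count is no support for a direction. The median difference of the tested members was -0.02, and of all genes 0.07. The threshold is an adjusted p under 0.05 in limma, a linear model fitted over all genes. Leaving out any 1 array gave 20 to 23 members past it. Without the array that stood apart it was 23, of which 21 were shared, and leaving out the NICD condition gave 22 members, 19 of them shared with the full set.

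**Figure D1:**
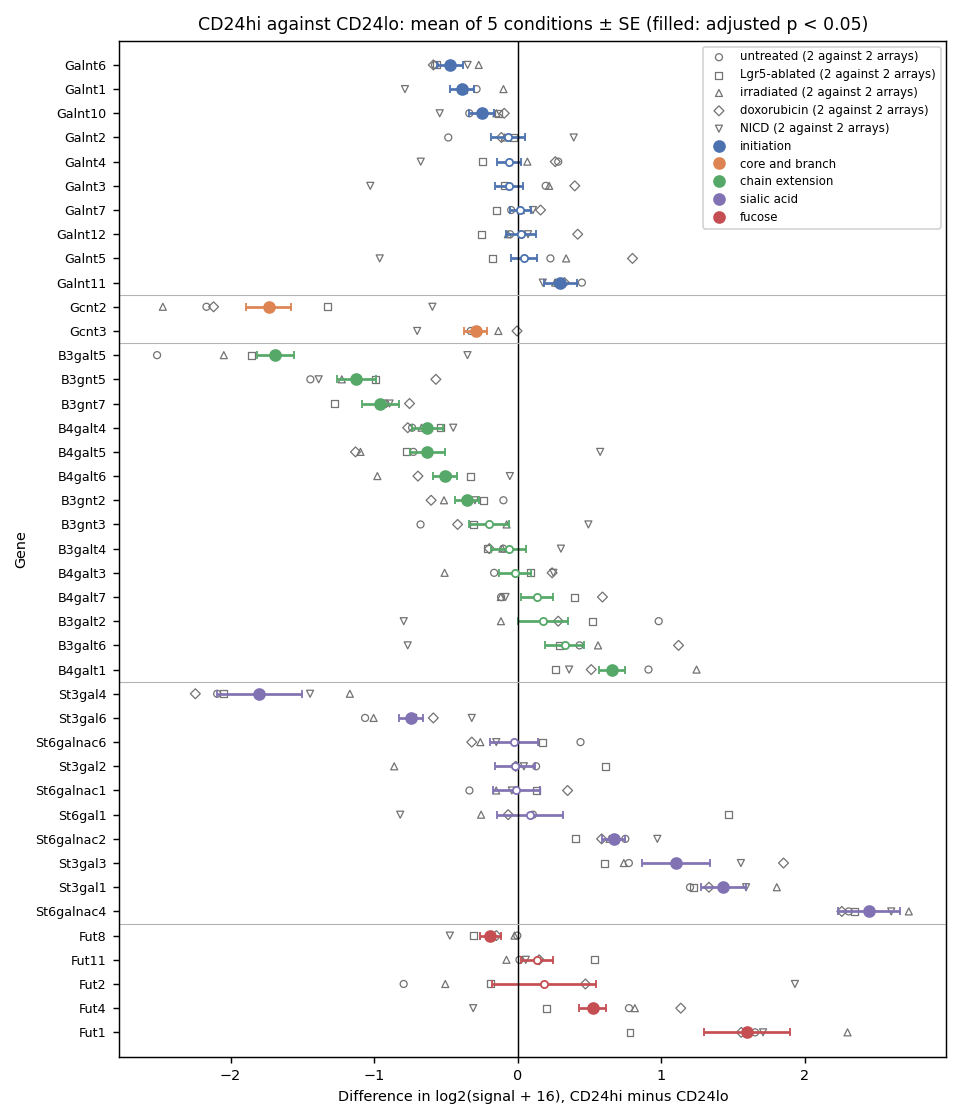
Difference between CD24hi and CD24lo cells for the 41 tested members, in log2(signal + 16), ordered by role. Coloured points with bars are the mean over 5 conditions ± SE, filled where the adjusted p was under 0.05, and open grey symbols are the single conditions (2 against 2 arrays). St6galnac4 lies farthest to the right at 2.45, and St3gal4, Gcnt2 and B3galt5 farthest to the left, at -1.80, -1.74 and -1.69.

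Promoters of 4 of these members are shown as examples of each direction, not as those with the largest or most repeated differences. For St3gal1 and St6galnac2 no promoter was at hand, and that of Gcnt2 is not shown. Sequences are those of RefSeq on GRCm38.p6, 250 bases before to 50 after an annotated start, 5′ to 3′ on the gene's strand, and capitals mark matches to the motifs searched. St6galnac4 lies at chr2:32586828-32587127 on the plus strand, B4galt1 at chr4:40853935-40854234 on the minus strand, B3galt5 at chr16:96235551-96235850 on the plus strand and St3gal4 at chr9:35116815-35117114 on the minus strand.
St6galnac4: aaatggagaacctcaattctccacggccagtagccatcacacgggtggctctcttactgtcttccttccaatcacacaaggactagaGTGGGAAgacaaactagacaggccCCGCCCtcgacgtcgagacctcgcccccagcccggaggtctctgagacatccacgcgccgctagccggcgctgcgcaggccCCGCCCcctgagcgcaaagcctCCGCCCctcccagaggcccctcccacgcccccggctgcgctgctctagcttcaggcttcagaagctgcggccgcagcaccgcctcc
B4galt1: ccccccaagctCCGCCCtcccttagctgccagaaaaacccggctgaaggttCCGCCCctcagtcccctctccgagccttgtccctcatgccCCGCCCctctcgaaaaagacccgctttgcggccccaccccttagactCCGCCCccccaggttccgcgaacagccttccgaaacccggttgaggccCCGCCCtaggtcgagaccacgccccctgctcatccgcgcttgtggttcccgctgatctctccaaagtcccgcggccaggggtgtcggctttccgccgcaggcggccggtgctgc
B3galt5: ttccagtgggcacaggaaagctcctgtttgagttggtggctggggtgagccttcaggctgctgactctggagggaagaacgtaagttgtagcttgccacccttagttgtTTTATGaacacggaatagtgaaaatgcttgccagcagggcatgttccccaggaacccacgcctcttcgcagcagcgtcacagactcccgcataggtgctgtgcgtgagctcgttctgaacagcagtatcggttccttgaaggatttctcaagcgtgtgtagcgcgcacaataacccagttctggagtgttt
St3gal4: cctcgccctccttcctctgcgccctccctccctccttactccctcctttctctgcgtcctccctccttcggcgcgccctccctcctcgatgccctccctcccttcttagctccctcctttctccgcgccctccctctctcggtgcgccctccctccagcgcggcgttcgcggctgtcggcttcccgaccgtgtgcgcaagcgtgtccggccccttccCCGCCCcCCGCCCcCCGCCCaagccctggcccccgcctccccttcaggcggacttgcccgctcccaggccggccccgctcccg
The first pair was higher in CD24hi cells and the second pair lower. B3galt5 has 3 annotated starts in the table, of which 1 is shown. The array does not tell which start was in use.

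The motifs searched on both strands were the GC box GGGCGG, the CDX motif TTTATG, the TCF motif CTTTGAT, the E-box CAGCTG, the RBPJ motif GTGGGAA and the HNF4 motif CAAAGTCCA. A longer HNF1 motif, whose letters are not printed, was searched too. RefSeq starts were at hand for 45 of the 63 members and for 18 of the 23 that differed between fractions. A GC box was in 5 of the 7 promoters of members higher in CD24hi cells and in 11 of the 21 promoters of members lower there. Of all 32851 promoters 35.7% held it, and 46.2% of the 21263 promoters of protein-coding genes. The B4galt1 window holds 5 GC boxes, St6galnac4 and St3gal4 hold 3 each, and that of B3galt5 holds a single CDX match, at -141 from the start. St6galnac4 also holds an RBPJ match, at -163 from its start, a motif found in 6.38% of all promoters. An RBPJ match was in 1 promoter of each direction. CDX, TCF and E-box matches were in 2, 1 and 2 of the 21 promoters of lower members and in 0 of the 7 of higher members. Of all promoters 11.9%, 3.73% and 16.3% held them. With so few promoters, several of 1 gene among them, the directions were not compared by a test. A match is a description and says nothing on whether a factor was bound.

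Among the sialyltransferases, 6 of 10 tested members differed, 4 higher and 2 lower in CD24hi cells, beside 46.6% of all genes. St6galnac4, which adds sialic acid to the N-acetylgalactosamine of a chain that already carries one, had levels of 5.32 (lowest), 6.40 (median) and 6.80 (highest) over the 10 CD24lo arrays, and of 8.09, 8.70 and 9.53 over the 10 CD24hi arrays. No CD24lo array reached the lowest CD24hi array. St6galnac4 was above the array median on all 10 CD24hi arrays and on 0 of the 10 CD24lo arrays, so it was tested only because it was high in CD24hi cells. Its part of the 4 higher is no support for a direction. Its CD24lo level may lie near background, and the difference of 2.45 ± 0.22 (SE) between the means is given as a description, with no fold.

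St3gal1, which caps the core 1 disaccharide of mucin chains, had levels of 9.63, 10.0 and 11.1 (lowest, median, highest) in CD24lo arrays and of 10.9, 11.7 and 12.2 in CD24hi arrays. The ranges overlapped, and the difference was 1.43 ± 0.16 (SE, 2.69-fold; adjusted p = 1.5e-06 in limma). St6galnac2, an enzyme that sialylates the first sugar of the chain, lay at 9.84 to 10.3 in CD24lo and at 10.4 to 11.0 in CD24hi arrays, without overlap, and was 0.67 ± 0.08 (SE) higher. St3gal3, which acts on type 1 chains, was higher by 1.10 ± 0.24 (SE), with 5.39 to 9.01 in CD24lo and 7.72 to 9.54 in CD24hi arrays.

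The other 2 sialyltransferases that differed were lower in CD24hi cells. St3gal4, which sialylates type 2 chain ends, had levels of 8.85, 10.7 and 12.1 (lowest, median, highest) in CD24lo arrays and of 7.97, 8.92 and 9.94 in CD24hi arrays. The ranges overlapped, and St3gal4 also varied within groups, by up to 2.07 between the 2 arrays of CD24lo untreated. Its difference was -1.80 ± 0.30 (SE, 3.48-fold lower; adjusted p = 9.86e-05 in limma). St3gal6, with a like substrate, ran from 11.6 to 12.6 in CD24lo and from 10.9 to 12.1 in CD24hi arrays, a difference of -0.74 ± 0.08 (SE). Of these 6, only St6galnac4 and St6galnac2 had no overlap between the 10 CD24lo and the 10 CD24hi arrays. The share of all genes without overlap is not given here, and St6galnac4 was tested only because it was high in CD24hi cells.

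**Figure D2:**
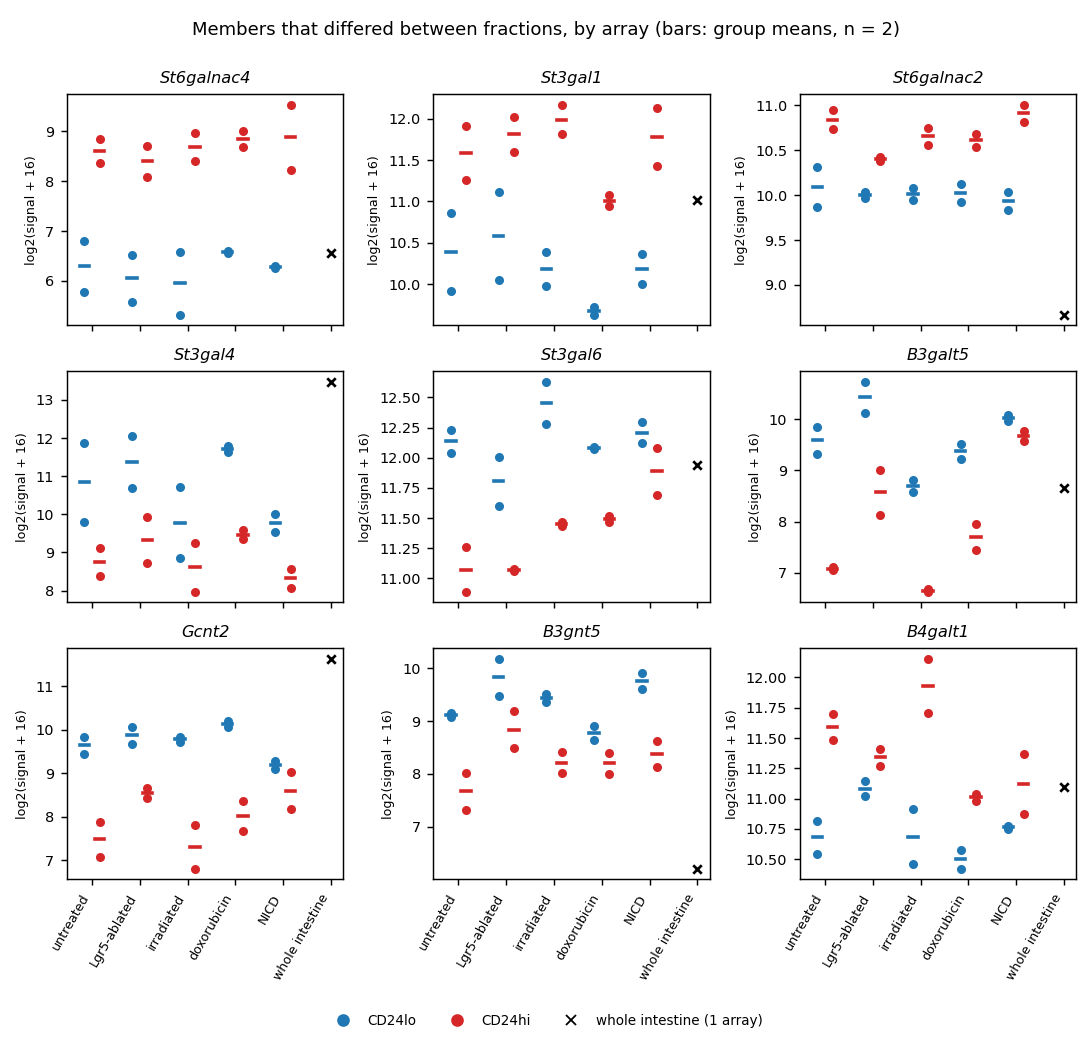
Levels, as log2(signal + 16), of 9 members on every array, by condition. Points are arrays, blue for CD24lo and red for CD24hi, bars are the means of 2 arrays, and the cross is the single whole intestine array. St6galnac4, St3gal1, St6galnac2 and B4galt1 lie higher in CD24hi arrays, and St3gal4, St3gal6, B3galt5, Gcnt2 and B3gnt5 lower.

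Of the 5 core and branch members 2 were tested, and both were lower in CD24hi cells, where 19.2% of all genes were. Gcnt2, the enzyme that makes the I branch, had levels of 9.11, 9.78 and 10.2 (lowest, median, highest) in CD24lo arrays and of 6.80, 8.03 and 9.02 in CD24hi arrays, without overlap. The difference was -1.74 ± 0.16 (SE, 3.33-fold lower; adjusted p = 1.9e-07 in limma), and the 3 other probe sets of Gcnt2 that passed the filter had the same sign. Gcnt3, the mucin-type branching enzyme of the gut, was high in both fractions, at 12.9 to 13.6 and 12.6 to 13.5, and differed by -0.29 ± 0.08 (SE; adjusted p = 0.00611 in limma).

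B3gnt6, the core 3 synthase of gut mucins, was not tested. Its levels lay at 5.03 to 6.30 in CD24lo arrays and at 6.05 to 7.27 in CD24hi arrays, so it was never above an array median. With no filter the difference was 0.95 (adjusted p = 0.000137 in limma), and Gcnt7, the other untested member past the threshold then, had -0.67 (adjusted p = 0.00598). A level this near background does not tell whether the gene was expressed.

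Of 14 chain extension members tested, 1 was higher and 7 were lower in CD24hi cells, beside 27.4% and 19.2% of all genes. B3galt5, which makes type 1 chains, had levels of 8.57, 9.69 and 10.7 (lowest, median, highest) in CD24lo arrays and of 6.62, 7.70 and 9.78 in CD24hi arrays. Of the CD24hi arrays, both NICD arrays and 1 Lgr5-ablated array came into the CD24lo range. The difference was -1.69 ± 0.13 (SE, 3.23-fold lower; adjusted p = 2.63e-08 in limma). B3gnt5, which starts lacto-series glycolipids, differed by -1.12 ± 0.14 (SE), and B3gnt7, an enzyme of keratan sulfate chains, by -0.96 ± 0.13.

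Smaller differences in the same direction were those of B4galt4 and B4galt5, each at -0.63, of B4galt6 at -0.51 and of B3gnt2, a main enzyme of poly-N-acetyllactosamine, at -0.35. The mean of B4galt5 hides a change of sign, from -1.13 with doxorubicin to 0.57 with NICD. B4galt1, the broadly used galactosyltransferase that also makes lactose, was the 1 that was higher. It had levels of 10.4, 10.8 and 11.1 (lowest, median, highest) in CD24lo arrays and of 10.9, 11.4 and 12.2 in CD24hi arrays, a difference of 0.66 ± 0.09 (SE; adjusted p = 1.93e-05 in limma). The other 6 tested extension members did not pass the threshold, and B3galt6 came nearest to it (0.33 ± 0.14, adjusted p = 0.0601).

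Of 5 fucosyltransferases tested, 2 were higher and 1 lower in CD24hi cells, beside 27.4% and 19.2% of all genes. Fut1, which makes the H antigen, had levels of 4.25 to 6.93 in CD24lo and of 6.11 to 7.47 in CD24hi arrays. It was above the array median on 2 CD24hi arrays and on 0 CD24lo arrays, so it too was tested only because it was high in CD24hi cells. Its part of the 2 higher is no support for a direction, and no fold is given against a level that may lie near background. Fut4, which adds the fucose of Lewis x, was higher by 0.52 ± 0.09 (SE), with medians of 10.8 and 11.5. In single conditions Fut4 ran from -0.31 with NICD to 1.13 with doxorubicin. Fut8 was slightly lower, at -0.19 ± 0.07 (SE; adjusted p = 0.0431). Fut2, the secretor enzyme of the gut epithelium, and Fut11 did not pass the threshold.

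Of 10 initiating enzymes tested, and over the mean of conditions, Galnt6 (-0.47), Galnt1 (-0.39) and Galnt10 (-0.25) were lower and Galnt11 (0.30) higher in CD24hi cells. Of all genes 19.2% were lower and 27.4% higher. The other 6 did not pass the threshold. Galnt3, Galnt4, Galnt5, Galnt7 and Galnt12 had levels of 10.3 or more on every sorted array, and their mean differences lay between -0.06 and 0.04. These means hide differences of opposite sign in single conditions. Galnt5 passed the threshold in both directions, at 0.80 with doxorubicin and -0.96 with NICD, and Galnt3 ran from -1.03 with NICD to 0.40 with doxorubicin. Galnt1, always lower, ran from -0.79 to -0.10. Galnt12 had a median of 12.1 in CD24lo and 12.0 in CD24hi arrays. A p above the threshold does not show that these levels are equal.

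**Figure D3:**
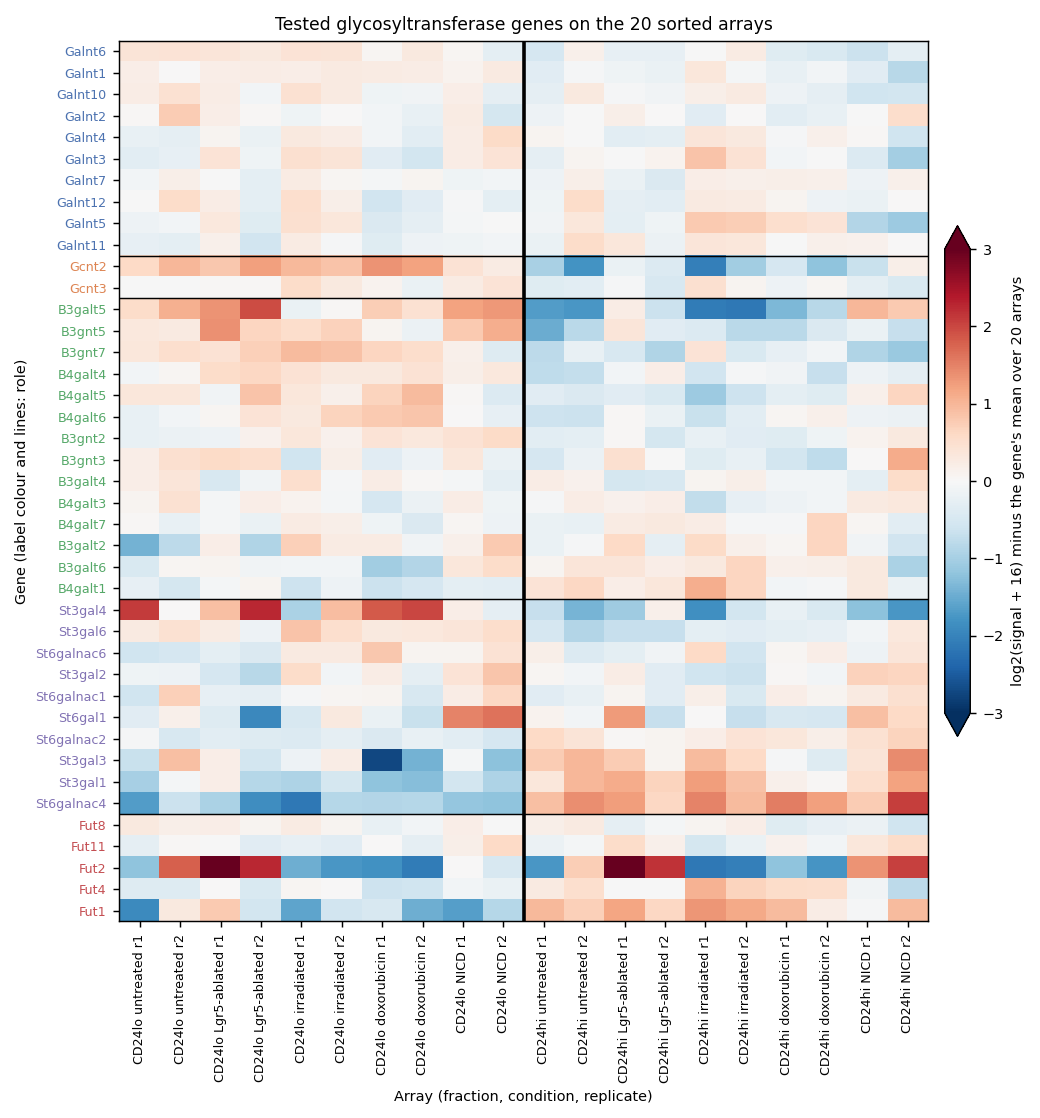
Level of each of the 41 tested members on each of the 20 sorted arrays, as log2(signal + 16) minus the member's mean over the arrays (red above, blue below, colour limits at -3 and 3). Columns left of the line are CD24lo and right of it CD24hi, rows are grouped by role, and r1 and r2 are replicates. St6galnac4 is below its mean on every CD24lo array and above it on every CD24hi array, and Fut2 is highest on the Lgr5-ablated arrays of both fractions.

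The probe sets of a member mostly went the same way. All 16 members past the threshold that had a further probe set above the filter had the same sign in it for the mean of conditions, B3galt5 at -1.15 and -1.01, for example, and St3gal1 at 1.04. Of the tested members, 8 are read through probe sets of the array's less specific types (marked _a, _s or _x), among them B4galt1, St3gal3 and St3gal4.

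In single conditions, which rest on 2 against 2 arrays, fewer members passed. In untreated mice 12 of 41 differed, 5 higher and 7 lower, where 14.4% of all genes did (7.51% higher, 6.88% lower). After Lgr5 ablation it was 6 (2 higher, 4 lower) against 6.97% of all genes (4.14% and 2.83%), and after irradiation 13 (6 higher, 7 lower) against 15.8% (7.54% and 8.23%). With doxorubicin 16 differed (7 higher, 9 lower) against 28.3% (17.4% and 10.9%) and with NICD 12 (4 higher, 8 lower) against 24.1% (13.6% and 10.5%). As shares of the 41 members these are 29.3%, 14.6%, 31.7%, 39.0% and 29.3%. The higher members include St6galnac4 in every condition and Fut1 after irradiation. Both were tested only because they were high in CD24hi cells, so their part of these counts is no support for a direction.

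These counts moved when 1 array was left out. Such a fit leaves 1 array in a group and is less precise, so a lost call need not mean a changed difference. The untreated count was 6 without CD24lo untreated replicate 1 and 7 without CD24hi untreated replicate 1. The count after Lgr5 ablation was 2 without CD24lo Lgr5-ablated replicate 2, 2 without CD24hi Lgr5-ablated replicate 1 and 3 without CD24hi Lgr5-ablated replicate 2. That after irradiation was 7 without CD24lo irradiated replicate 1. With doxorubicin it was 7 without any 1 of the 4 arrays. With NICD it was 3 without CD24lo NICD replicate 2 and 2 without CD24hi NICD replicate 2, the array that stood apart.

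Over the 5 conditions, which share no arrays, 21 of the 41 members (51.2%) had differences of 1 sign, 7 higher and 14 lower in CD24hi cells. Of all genes 35.8% did. Among the 7 higher are St6galnac4 and Fut1, tested only because they were high in CD24hi cells, so their part of this count is no support for a direction. St3gal1 was past the threshold in all 5, with differences of 1.20 to 1.80. St6galnac4 had 2.30 (untreated), 2.34 (Lgr5-ablated), 2.72 (irradiated), 2.26 (doxorubicin) and 2.60 (NICD). These values describe how far its CD24hi arrays lay above a CD24lo level under the array median, and its calls are not used as support.

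Calls of St3gal1 in single conditions were lost when some single arrays were left out, which leaves 1 array in a group and a less precise difference. In untreated mice it had 0.73 (adjusted p = 0.294) without CD24lo untreated replicate 1 and 0.87 (0.232) without CD24hi untreated replicate 2. After Lgr5 ablation it had 0.70 (0.612) without CD24lo Lgr5-ablated replicate 2, 1.01 (0.321) without CD24hi Lgr5-ablated replicate 1 and 1.44 (0.0557) without CD24hi Lgr5-ablated replicate 2. With doxorubicin it had 1.29 without CD24lo doxorubicin replicate 2 and 1.27 without CD24hi doxorubicin replicate 1, beside 1.33 with all arrays. With NICD it had 1.41 (0.0762) without CD24lo NICD replicate 2 and 1.24 (0.0894) without CD24hi NICD replicate 2. After Lgr5 ablation the adjusted p was also 0.0554 to 0.252 under 6 other settings, and in untreated mice 0.0514 with no trend. Its sign was the same in each of these fits.

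B3galt5, Gcnt2 and St3gal6 were past the threshold in the 4 conditions other than NICD. B3gnt7 and St6galnac2 were past it in 4 conditions too, B3gnt7 failing with doxorubicin and St6galnac2 after Lgr5 ablation. St3gal6 had -0.32 with NICD (adjusted p = 0.219), and its call after Lgr5 ablation was lost with the mean of probe sets (adjusted p = 0.0805). B3galt5 differed by -2.51 in untreated mice, -1.86 after Lgr5 ablation, -2.05 after irradiation, -1.68 with doxorubicin and -0.35 with NICD. After irradiation its other 2 probe sets had only -0.45 (adjusted p = 0.437) and -0.39 (adjusted p = 0.533), so that call rests on 1 probe set. In the untreated, Lgr5-ablated and doxorubicin comparisons both passed, at -2.17 to -1.19. Gcnt2 differed by -2.17, -1.33, -2.47, -2.12 and -0.59 in that order. After Lgr5 ablation the Gcnt2 call was lost without CD24lo Lgr5-ablated replicate 2 (-1.12, adjusted p = 0.335), CD24hi Lgr5-ablated replicate 1 (-1.44, adjusted p = 0.136) and CD24hi Lgr5-ablated replicate 2 (-1.21, adjusted p = 0.115). It had 0.0504 with no filter, 0.0889 with the mean of probe sets and 0.123 with only the compared groups as adjusted p, and B3galt5 had 0.129 with the last. Markers moved with the fractions beside these members. Over the mean of conditions 7 of 8 Paneth markers, 9 of 9 stem cell markers and 7 of 7 tuft cell markers were higher in CD24hi cells, 10 of 10 enterocyte markers were lower, and of 11 goblet markers 1 was higher and 5 lower. The tuft cell markers Dclk1, Pou2f3, Sh2d6 and Gfi1b were under the array median on every CD24lo array. They were tested only because they were high in CD24hi cells, so their part of the tuft count is no support for a direction. The part of the markers in the members' differences was not tested.

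Treatments moved few members in CD24lo cells. After Lgr5 ablation 0 of 41 passed the threshold in limma, with 4 at an unadjusted p under 0.05, and 0.237% of all genes passed. After irradiation it was 1 member, B3galt2, against 4.03% of all genes (1.57% higher, 2.45% lower). With doxorubicin 3 passed, 2 higher and 1 lower, against 14.8% (5.47% and 9.30%). With NICD 4 passed, all 4 higher, against 14.4% (6.63% and 7.72%). With NICD, the members' share was 9.76%, and with doxorubicin 7.32%.

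B4galt6, a lactosylceramide synthase, rose with doxorubicin in CD24lo cells. Its levels were 10.2 and 10.4 on the untreated arrays and 11.2 and 11.3 on the doxorubicin arrays, without overlap, a difference of 0.95 ± 0.19 (SE, 1.94-fold; adjusted p = 0.00445 in limma). It passed under every other setting and without any 1 array. Its 3 other probe sets above the filter rose too, by 0.94 to 1.17. St3gal3 fell, from 7.44 and 9.01 to 5.39 and 6.71, a difference of -2.18 ± 0.53 (SE; adjusted p = 0.0134). Its call was lost without CD24lo untreated replicate 2 (-1.40, adjusted p = 0.174) and without CD24lo doxorubicin replicate 1 (-1.52, adjusted p = 0.166).

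B3galt2, a galactosyltransferase that extends chains, was higher than untreated in CD24lo cells after irradiation, with doxorubicin and with NICD. These 3 comparisons share the untreated arrays, whose levels were 7.04 and 7.65. The levels were 9.17 and 8.68 after irradiation, 8.70 and 8.35 with doxorubicin and 8.59 and 9.23 with NICD, all above both untreated arrays. The differences were 1.58 ± 0.38, 1.18 ± 0.38 and 1.56 ± 0.38 (SE), with adjusted p = 0.0285, 0.0485 and 0.0187 in limma. The first was lost without any 1 of its 4 arrays, at 1.27 (adjusted p = 0.141) without CD24lo untreated replicate 1, 1.89 (0.0589) without CD24lo untreated replicate 2, 1.34 (0.263) without CD24lo irradiated replicate 1 and 1.83 (0.0639) without CD24lo irradiated replicate 2. The one with doxorubicin was also lost without any 1, with adjusted p = 0.225 and 0.083 without CD24lo untreated replicates 1 and 2, and 0.25 and 0.107 without CD24lo doxorubicin replicates 1 and 2. That with NICD was lost without CD24lo untreated replicate 1 (1.25, 0.102) and CD24lo NICD replicate 2 (1.25, 0.281). The call with doxorubicin was also lost under 6 other settings, with adjusted p = 0.0526 (replicate block) to 0.0919 (mean of probe sets). After irradiation 5 of 9 stem cell markers were lower in CD24lo cells, their list mean being 10.0 and 9.82 on untreated and 8.47 and 9.10 on irradiated arrays, and their part was not tested.

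**Figure D4:**
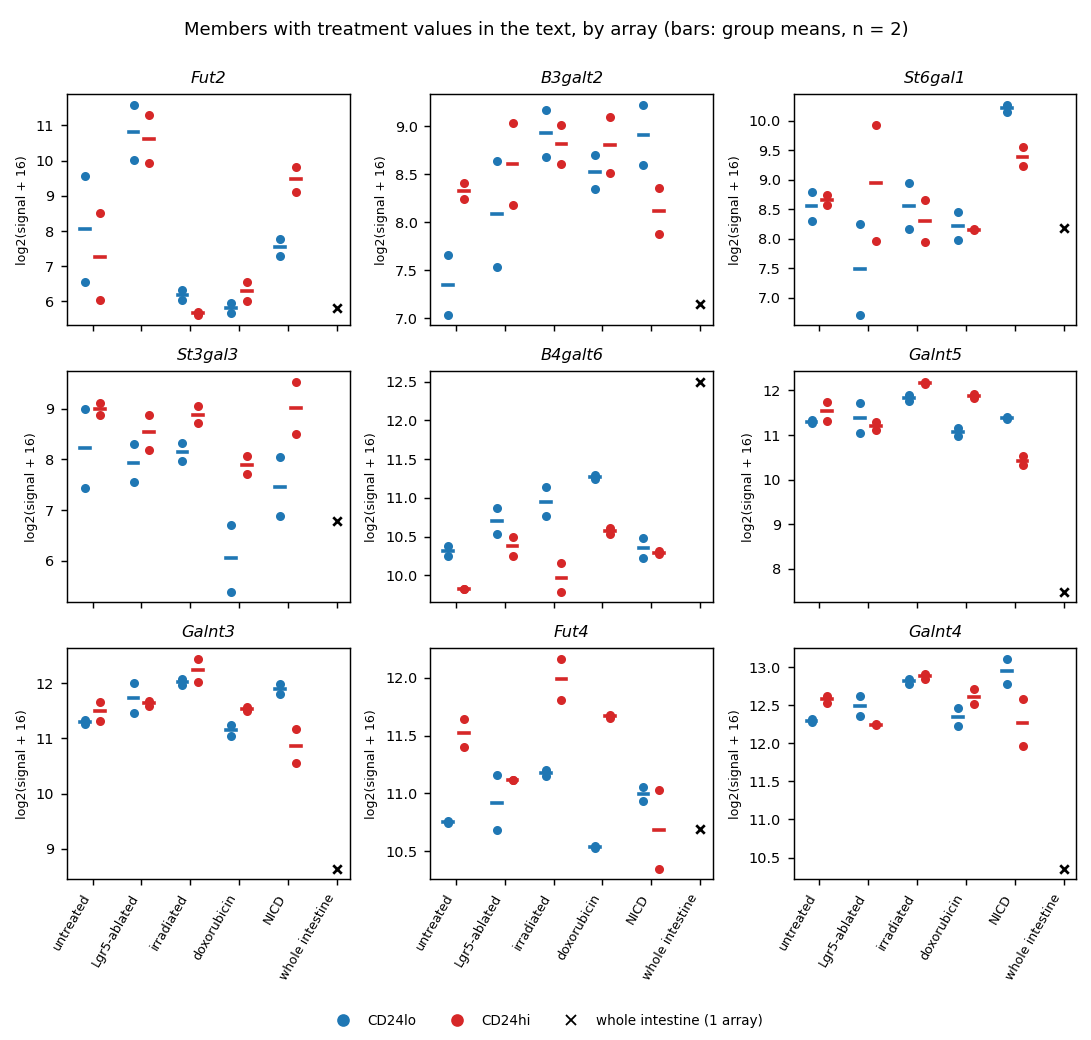
Levels, as log2(signal + 16), of 9 members with treatment values, on every array by condition. Points are arrays, blue for CD24lo and red for CD24hi, bars are the means of 2 arrays, and the cross is the single whole intestine array. Fut2 runs from 5.62 to 11.6, and the untreated CD24lo group has the lowest mean of B3galt2 among the sorted groups, 7.34.

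With NICD in CD24lo cells, St6gal1 had levels of 10.1 and 10.3, above the 8.31 and 8.79 of the untreated arrays, a difference of 1.66 ± 0.52 (SE; adjusted p = 0.0425 in limma). B3gnt2 rose by 0.71 ± 0.19 (SE; adjusted p = 0.0235) and Galnt4 by 0.65 ± 0.19 (SE; adjusted p = 0.0315). Their other probe sets did not pass the threshold: a second probe set of St6gal1 had 0.36 (adjusted p = 0.746) and that of B3gnt2 had -0.07. Of the 2 others of Galnt4, 1 had -0.0024 and 1 had 0.85 (adjusted p = 0.222). St6gal1 lost its call without any 1 array, with 1.42 (0.163) and 1.90 (0.0889) without untreated replicates 1 and 2, and 1.73 (0.0858) and 1.60 (0.308) without NICD replicates 1 and 2. B3gnt2 and Galnt4 lost theirs without CD24lo untreated replicate 1 (0.68, 0.0854, and 0.67, 0.0903), CD24lo untreated replicate 2 (0.73, 0.0785, and 0.63, 0.116) and CD24lo NICD replicate 2 (0.65, 0.271, and 0.49, 0.347). With the mean of probe sets the adjusted p was 0.221 for St6gal1, 0.241 for B3gnt2 and 0.0514 for Galnt4. In these libraries 3 of 6 T cell markers tested were higher than untreated, 5 of 10 enterocyte markers lower and 3 of 11 goblet markers lower, and their part was not tested. With doxorubicin in CD24lo cells 4 of 6 T cell markers and 4 of 10 enterocyte markers were higher, and 6 of 9 stem cell and 5 of 8 Paneth markers lower. Of the T cell markers, Cd3e and Cd3g were above the median on no sorted array other than those with doxorubicin. They were tested only because they were high there, and are no support for a direction.

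In CD24hi cells the member with the lowest adjusted p for a treatment was B3galt5. Its levels were 7.11 and 7.04 on the untreated arrays and 9.78 and 9.57 on the NICD arrays. The NICD arrays thus reached the levels of CD24lo cells, which lay at 8.57 to 10.7. The difference was 2.60 ± 0.29 (SE, 6.06-fold; adjusted p = 0.000121 in limma). The other 2 probe sets rose by 2.54 and 2.05. It passed under every other setting and without any 1 array. After Lgr5 ablation B3galt5 had 9.01 and 8.13, a difference of 1.49 ± 0.29 (SE; adjusted p = 0.0178), and it was the 1 member past the threshold there, where 0.812% of all genes passed (0.541% higher, 0.271% lower). That call was lost without CD24hi untreated replicate 1 (1.53, adjusted p = 0.0988), CD24hi untreated replicate 2 (1.46, 0.139) and CD24hi Lgr5-ablated replicate 1 (1.05, 0.284). The other 2 probe sets had 1.26 (adjusted p = 0.131) and 0.76 (adjusted p = 0.547) there, neither past the threshold. The mean of probe sets gave 0.92 (adjusted p = 0.0724), and with only the compared groups the adjusted p was 0.211.

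With NICD in CD24hi cells 5 members passed, 2 higher and 3 lower, against 6.44% of all genes (4.61% higher, 1.84% lower). The count was 2 without CD24hi NICD replicate 2, which stood apart, 1 without CD24hi untreated replicate 2 and 13 without CD24hi NICD replicate 1. Galnt5, an initiating enzyme, had 11.3 and 11.7 on untreated and 10.5 and 10.3 on NICD arrays, a difference of -1.10 ± 0.20 (SE; adjusted p = 0.00313 in limma). It had -0.88 (adjusted p = 0.0651) without CD24hi untreated replicate 2, the only left-out array that ended its call. St3gal6 rose by 0.81 ± 0.19 (SE; adjusted p = 0.0147), Fut4 fell by 0.84 ± 0.21 (SE) to 11.0 and 10.3 (adjusted p = 0.0232), and Fut8 fell by 0.61 ± 0.17 (SE; adjusted p = 0.0376).

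These 3 calls were lost when some single arrays were left out, which leaves 1 array in a group and a less precise difference. Without CD24hi NICD replicate 2 they had 0.62 (0.196), -0.50 (0.346) and -0.39 (0.392) for St3gal6, Fut4 and Fut8, and without CD24hi untreated replicate 2 they had 0.63 (0.166), -0.72 (0.177) and -0.56 (0.191). Without CD24hi untreated replicate 1 Fut4 had -0.96 (adjusted p = 0.058) and Fut8 -0.65 (adjusted p = 0.106). With the mean of probe sets the adjusted p was 0.116 for St3gal6 and 0.269 for Fut8. Beside these members, 7 of 7 tuft cell markers, 9 of 10 enteroendocrine markers and 2 of 10 enterocyte markers were higher with NICD in CD24hi cells. So were 2 of 4 B and plasma cell markers tested, whose list mean was 7.77 and 8.10 on untreated and 9.69 and 9.56 on NICD arrays. The tuft cell marker Gfi1b was under the array median on every sorted array but the CD24hi NICD arrays. It was tested only because it was high there, so its part of the tuft count is no support for a direction. The part of these cell types was not tested. In CD24hi cells after irradiation 0 members passed in limma (5 at an unadjusted p under 0.05) against 4.44% of all genes, and with doxorubicin 0 (5 at an unadjusted p under 0.05) against 1.19%.

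Whether a treatment acted unequally in the fractions was tested by the difference between its effects. For NICD 3 members passed, 1 positive and 2 negative, against 2.61% of all genes (1.62% positive, 0.989% negative). B3galt5 rose by 2.16 ± 0.41 (SE) more in CD24hi than in CD24lo cells (adjusted p = 0.0298 in limma), and CD24lo arrays had 9.33 and 9.85 untreated and 9.97 and 10.1 with NICD. Galnt5 had -1.19 ± 0.28 (SE; adjusted p = 0.0412) and Galnt3, another initiating enzyme, -1.22 ± 0.31 (SE; adjusted p = 0.0485). The other 2 probe sets of B3galt5 had smaller values of the same sign (adjusted p = 0.0609 and 0.0859), and those of Galnt3 had -1.01 (adjusted p = 0.1) and -0.19 (adjusted p = 0.826). Galnt3 had 11.3 and 11.7 on untreated and 11.2 and 10.6 on NICD arrays of CD24hi cells, and 11.3 on both untreated and 11.8 and 12.0 on NICD arrays of CD24lo cells. The count was 0 without CD24hi NICD replicate 2, CD24lo NICD replicate 2, CD24lo untreated replicate 2, CD24hi untreated replicate 1 or CD24hi untreated replicate 2, 1 without CD24lo untreated replicate 1, 5 without CD24lo NICD replicate 1 and 13 without CD24hi NICD replicate 1. Without CD24hi NICD replicate 2 the values were 2.27 (0.111), -1.09 (0.209) and -0.92 (0.264) for B3galt5, Galnt5 and Galnt3.

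For the other treatments 0 members passed this test in limma, with 1 at an unadjusted p under 0.05 for Lgr5 ablation, 1 for irradiation and 0 for doxorubicin. The shares of all genes past the threshold were 0.0169%, 0.00846% and 0.0338%. In the hi against lo difference with NICD, probe sets disagreed in sign for Galnt3, Galnt4 and St6galnac2. Galnt3 had -1.03 in the chosen probe set, -0.90 in another and 0.19 in the remaining one. Galnt4 had -0.68 against 0.21 and 0.19, and St6galnac2 had 0.97 against -0.08. After Lgr5 ablation St3gal6 had -0.74 against 0.15 in 1 of its 3 others.

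Fut2 had the widest range of all members, 5.97 on the log2 scale. Untreated arrays had 6.56 and 9.57 in CD24lo and 6.03 and 8.51 in CD24hi cells. The 4 arrays of Lgr5-ablated mice were the highest, at 11.6 and 10.0 in CD24lo and 11.3 and 9.94 in CD24hi cells. Arrays after irradiation or doxorubicin lay at 5.62 to 6.56 and NICD arrays at 7.29 to 9.81. The gap of 3.01 between the CD24lo untreated arrays was the largest of any member within a group. Against untreated the Lgr5-ablated difference was 3.35 ± 0.81 (SE; adjusted p = 0.0683 in limma) in CD24hi and 2.75 ± 0.81 (SE; adjusted p = 0.336) in CD24lo cells, neither past the threshold. The order of group means, high to low, put both Lgr5-ablated groups first and the CD24hi NICD group next, and the irradiated and doxorubicin groups of both fractions last. Neighbours in this order overlapped in their arrays, except that CD24hi Lgr5-ablated lay above CD24hi NICD and CD24lo irradiated lay above CD24lo doxorubicin.

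Some members kept a narrow range. St6galnac1, which makes sialyl-Tn on the first sugar, had levels of 6.86 to 8.18 in CD24lo and 7.01 to 7.96 in CD24hi arrays. Galnt7 had levels of 12.9 to 13.6 on the sorted arrays. In all, 12 of the 41 tested members passed the threshold in 0 of the 18 comparisons, and 3904 of all 11825 genes did. Members past it in at least 1 comparison were thus 29 of 41.

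Other genes of the pathway were counted by list over the mean of conditions. Of 23 tested genes that supply activated sugars, 1 was higher and 7 lower in CD24hi cells, with Papss2, a maker of activated sulfate, at -1.86, Ugdh at -1.40 and Gne, the first enzyme of sialic acid synthesis, at 1.06. Their median was -0.11, beside 0.07 for all genes. For these lists too, 27.4% of all genes were higher and 19.2% lower. Of 21 other enzymes of mucin sugars, 4 were higher and 6 lower. The largest differences were those of A4gnt, which caps gland mucin with alpha-linked N-acetylglucosamine, at 2.71 ± 0.21 (SE), of the sulfotransferase Chst4 at -1.57 ± 0.10 and of St8sia4. St8sia4 was above the array median on 4 CD24lo and 0 CD24hi arrays, so it was tested only because it was high in CD24lo cells. No mean difference or p is therefore given for it, and its part of the 6 lower is no support for a direction. With NICD its CD24lo arrays had 9.98 and 10.3. Its differences in the other conditions ran from -0.75 to 0.50, none past the threshold.

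Of 11 mucins and mucin-domain or mucus proteins tested, 1 was higher and 3 lower. Muc3 differed by -1.92 ± 0.14 (SE) and the goblet protein Clca1 by -1.02 ± 0.08. Muc1, the 1 that was higher, was above the array median on 3 CD24hi and 0 CD24lo arrays, so no difference is given for it. The gel-forming Muc2 differed by -0.06 ± 0.12 (SE; adjusted p = 0.691 in limma). C1galt1, which makes core 1, differed by -0.32 ± 0.07 (SE; adjusted p = 0.00105), and its chaperone C1galt1c1 by -0.12 ± 0.09 (adjusted p = 0.3). In CD24hi cells Muc1 had 4.28 and 5.39 on the untreated arrays, under the array median, and 7.86 and 7.72 with NICD. St8sia3, a sialyltransferase of another family, had 7.48 and 6.43 untreated and 9.39 and 9.73 with NICD.

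The whole intestine array has no replicate and entered no test. It lay outside the range of the 20 sorted arrays for 30 of the 63 members, below it for 20 and above it for 10. Its median level was 6.30, where the sorted arrays had 6.87 to 7.45. Members such as Galnt10 and Fut8 were below the range by only 0.47 and 0.09. The share of all genes outside the range is not given here, so these counts are a description. The 4 members farthest below were initiating enzymes, while Galnt2, another one, lay within the range. Galnt12 had 8.57, where the sorted arrays had 11.5 to 12.7, and Galnt5 had 7.49, where they had 10.3 to 12.2. Galnt3 had 8.64 against 10.6 to 12.4 and Galnt4 10.4 against 12.0 to 13.1. B3gnt5, St6galnac1, St6galnac2 and Gcnt3 were below too, at 6.20, 5.71, 8.67 and 11.7.

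Above the sorted range were B4galt5 at 12.7 (sorted 8.55 to 10.6), Gcnt2 at 11.6 (6.80 to 10.2), St3gal4 at 13.5 (7.97 to 12.1) and B4galt6 at 12.5 (9.79 to 11.3). The initiating enzymes Galnt6 at 12.5 and Galnt1 at 12.1 lay just above their highest sorted arrays, at 12.3 and 12.0. The first 4 were lower in CD24hi than in CD24lo cells, as were Galnt6 and Galnt1. Enterocyte markers had a list mean of 14.5 on this array, above every sorted array, and goblet markers 11.9, below every sorted array. T cell markers had a list mean of 10.4 there and of 5.46 to 8.50 on the sorted arrays. The part of these cell types in the values was not tested.

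**Figure D5:**
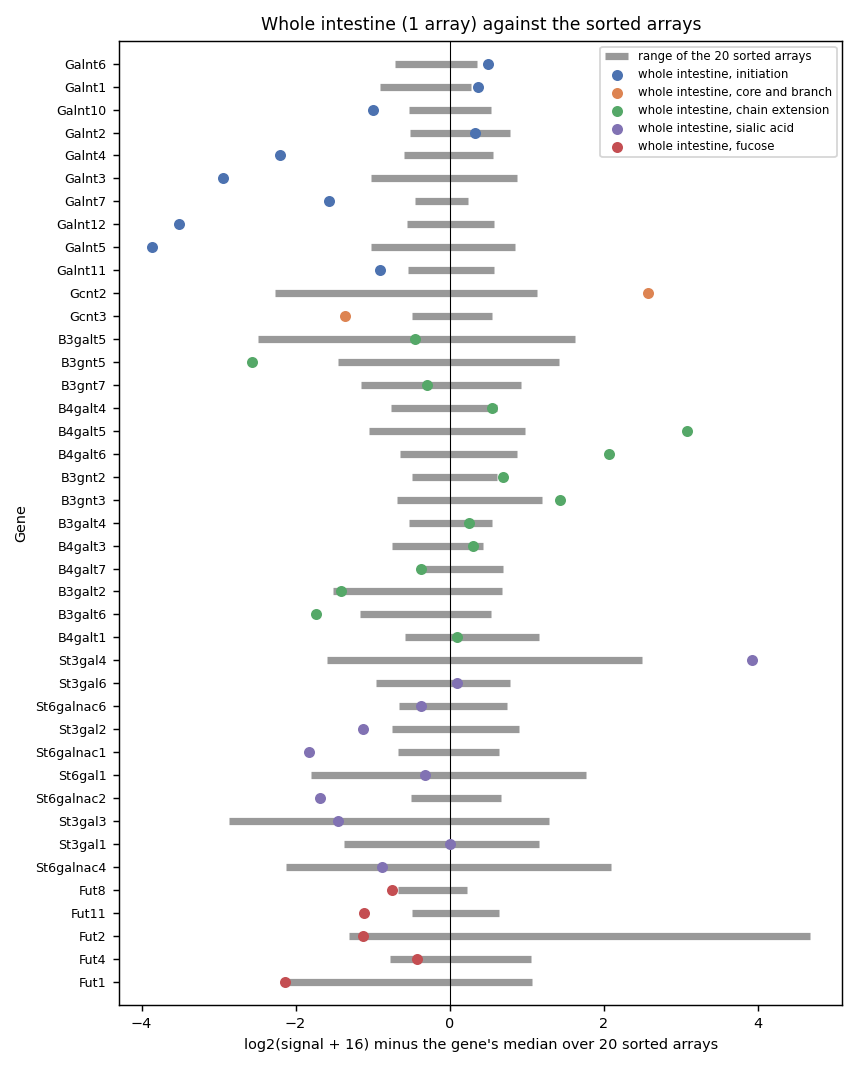
Whole intestine (1 array, coloured point) against the range of the 20 sorted arrays (grey bar) for the 41 tested members, in log2(signal + 16) minus the member's median over the sorted arrays. Galnt12, Galnt5 and Galnt3 lie well to the left of their bars, and St3gal4, B4galt5, Gcnt2 and B4galt6 to the right.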

How the data were processed

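Total RNA of sorted cells (0.8 ng, amplified with the GeneChip Pico kit, per the labels' protocols) was read on 21 Affymetrix arrays of the mouse. The deposited values are the authors' MAS5 signal intensities, per the submitters' processing notes, with the MAS5 version not given in the sources used here. The 2%-trimmed mean of every array lay at about 500, a scaling made before deposit. Of 45101 probe sets, 34958 carry 1 gene symbol, 932 several and 9211 none in GEO's platform annotation, and those with 1 symbol were used. Each gene was read through its probe set with the highest mean over the 20 sorted arrays, as log2(signal + 16), which understates the change of dim genes. Genes above the array median on at least 2 sorted arrays were tested.

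The 10 groups of 2 arrays were fitted together in limma 3.58.1 (R 4.3.3), with lmFit and eBayes with a trend, leaving 10 residual degrees of freedom. P-values were adjusted over all 11825 genes (Benjamini-Hochberg) in each of 18 comparisons, with a threshold of 0.05. The number of arrays limits the precision. Whole intestine, with 1 array, entered no fit.

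Set to be named were members past the threshold, by size (up to 15 for the mean of conditions, up to 10 otherwise). For single conditions not all of them are given. Also set were the levels of Galnt3, Galnt12, B3gnt6, Gcnt3, St6galnac1, St3gal4, St6gal1, Fut1, Fut2, Fut4 and B4galt1, members whose probe sets disagree, and the 3 largest called genes of each pathway list. The other members past the threshold for the mean of conditions, C1galt1, its chaperone, Muc2 and members near the threshold were named after their values were seen. The members and the gene lists were chosen with earlier results of these data known. Alternatives were other pseudocounts (1 and 64), quantile normalization, 75th percentile centring, no filter and a stricter one, averaging all probe sets of a gene, no trend, a replicate block, the compared groups alone and each array left out.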

Additional observations from a re-analysis of the deposited data

Results flagged for a closer look

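In 3 members the effect of NICD differed between the fractions by the test of that difference in limma, each effect being NICD minus untreated. B3galt5 had 2.16 ± 0.41 (SE; adjusted p = 0.0298), with 4 of 4 NICD arrays above every untreated array of the same fraction. Galnt5 had -1.19 ± 0.28 (SE; adjusted p = 0.0412), and both CD24hi NICD arrays lay below both CD24hi untreated arrays. Galnt3 had -1.22 ± 0.31 (SE; adjusted p = 0.0485), and its other probe sets had -1.01 (adjusted p = 0.1) and -0.19 (adjusted p = 0.826). Without CD24hi NICD replicate 2, the array that stood apart, the values were 2.27 (adjusted p = 0.111), -1.09 (0.209) and -0.92 (0.264).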

How the results depend on the processing

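Checked were 78 differences of members past the threshold, the largest of each comparison (up to 15 for the mean of conditions, up to 10 otherwise). Not all of these are given in the text. Of the 78, 32 kept their call under every alternative run, 46 lost it under at least 1 and 0 reversed. The counts of members past the threshold moved by over 1.5 times as follows. With only the compared groups fitted, the CD24hi against CD24lo count was 0 after Lgr5 ablation, and the treatment counts were 2 (NICD, CD24lo), 0 (Lgr5-ablated, CD24hi), 2 (doxorubicin, CD24hi), 2 (NICD, CD24hi) and 1 (NICD, difference between fractions). With the mean of probe sets they were 3 (irradiated, CD24lo), 1 (irradiated, CD24hi) and 1 (doxorubicin, CD24hi). With no trend they were 2 (NICD, CD24lo) and 1 (NICD, difference between fractions). With quantile normalization they were 1 (doxorubicin, CD24hi) and 5 (NICD, difference between fractions), with no filter 1 (the latter), with the stricter filter 5 (doxorubicin, CD24lo) and with a pseudocount of 64 they were 2 (Lgr5-ablated, CD24hi). With 1 array left out, the array that remains in its group is taken to have the spread of the other groups. The comparison is also less precise, so a call can be lost though its difference hardly moves. The counts between fractions were then 20 to 23 (mean of conditions), 6 to 8 (untreated), 2 to 8 (Lgr5-ablated), 7 to 10 (irradiated), 7 to 7 (doxorubicin) and 2 to 15 (NICD). In CD24lo cells they were 0 to 1 (Lgr5-ablated), 0 to 1 (irradiated), 1 to 4 (doxorubicin) and 0 to 4 (NICD), in CD24hi cells 0 to 2, 0 to 1, 0 to 0 and 1 to 13 in that order, and for the difference between fractions 0 to 13 (NICD) and 0 to 0 (the others). Same-numbered arrays deviated together in some pairs of groups and in opposition in others (45 pairs, correlation -0.414 to 0.385, 11 over 0.1 and 15 under -0.1). The check cannot tell whether arrays of some groups share a batch or an animal. With the replicate number as a block the count was 21 for the mean of conditions and 1 for the NICD difference between fractions. Centring on the 75th percentile shifted all genes by -0.10 in the doxorubicin comparison of fractions, with 6 members higher and 10 lower in place of 7 and 9. Members near background, such as Fut1 and B3gnt6, are limited by signal.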
